A study of Sus scrofa with 4 samples.

Results

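Fat absorption in the small intestine was examined through 10 genes of the pig that act between the uptake of fatty acids and the export of lipoproteins. They were *CD36*, *FABP1*, *FABP2*, *DGAT1*, *DGAT2*, *MTTP*, *APOA4*, *APOC3*, *APOA1* and *APOE*. They were chosen by name, and their probes were those whose design entry is a RefSeq transcript of the gene in NCBI's pig gene table. All 10 genes had at least 1 probe, and together they had 20 of the 43603 probes on the array and were 10 of the 2389 genes that could be named. Ileum, the segment of gut just before the colon, was sampled as slices from piglets 16 days old, the offspring of Yorkshire × Landrace sows and Duroc boars. Low weight gain was represented by 2 arrays of RNA pooled from 2 piglets each, and high weight gain by 2 arrays of RNA pooled from 3 piglets each. All piglets were nursed by sows, and no other treatment is named in the labels. The design text speaks of weight at birth where the sample labels speak of weight gain, and the labels were followed.

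Milk fat is digested to fatty acids and monoglycerides, which enterocytes, the absorptive cells of the gut lining, take up and rebuild into triglyceride. The triglyceride is loaded onto apolipoprotein B and leaves the cell as chylomicrons, particles that also carry smaller apolipoproteins and pass into the lymph. Most fat is absorbed upstream of the ileum, which is best known for taking back bile acids, but the ileal lining expresses much of the same machinery.

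Each RNA was labelled with Cy3 and hybridised to 1 one-colour array. Values are normalised log2 signals, the log2 of the scanner's processed signal after subtraction of that array's 75th percentile, so that 0 marks that percentile and 1 unit is a doubling. Differences are low gain minus high gain on this scale, with the standard error (SE) of a limma fit over all tested probes and n = 2 arrays per group. Levels are not ranked between probes, because each probe binds with its own strength. The labels do not say whether the arrays a and b of a group came from separate pools, so p-values reflect array-to-array spread only, and this spread may be technical. Across the series, each array had 32835 to 33972 of its 43803 non-control spots well above background, all 4 arrays shared 1 slide and 1 scan run, and low-gain array a had the largest spread among repeat spots (median SD 0.147, against 0.0837 to 0.0901 on the others). Precision is limited by the number of arrays.

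All 20 probes lay well above background on all 4 arrays, so that every value is measured and none is a bound. The carriers *FABP1* and *FABP2*, the lipid transfer gene *MTTP* and the apolipoprotein gene *APOA4* had higher signals in low gain, by 1.25-fold to 1.39-fold on their brightest probes. *APOE* and *DGAT2* had lower signals in low gain, by 1.76-fold and 1.73-fold, and *APOA1* was lower by 1.18-fold. *CD36*, *DGAT1* and *APOC3* had overlapping groups. None of the 20 probes passed the test at an adjusted p of 0.05 (limma with Benjamini-Hochberg adjustment over 33265 tested probes), where 0.24% of all tested probes passed. The smallest difference of any probe that passed was 1.49, larger than any difference among these 20. At an unadjusted p under 0.05 there were 6 of the 20, or 30%, against 18.4% of all tested probes. Of these 6, 4 were higher in low gain (9.82% of all tested probes) and 2 were lower (8.57%).

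In the alternative limma fit in which the prior variance follows signal intensity, 5 of the 20 probes passed, or 25%, where 3.76% of all tested probes did. These were both probes of *FABP2* and 1 of 3 of *FABP1*, which rose in low gain, and the probe of *APOE* and 1 of 2 of *DGAT2*, which fell. The 3 that rose stand against 2.26% of all tested probes that rose, and the 2 that fell against 1.5%. Probes of 1 gene share their target and are not independent. By 1 probe per gene, 1 of the 10 genes rose and 2 fell in that fit, where 112 and 58 of all 2158 genes did. The 20 probes were not matched in brightness to all tested probes, and this fit depends on brightness. Without low-gain array a, low-gain array b or high-gain array a, none of the 20 passed in that fit, and without high-gain array b only *APOE* did (adjusted p = 0.0342).

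**Figure D1:**
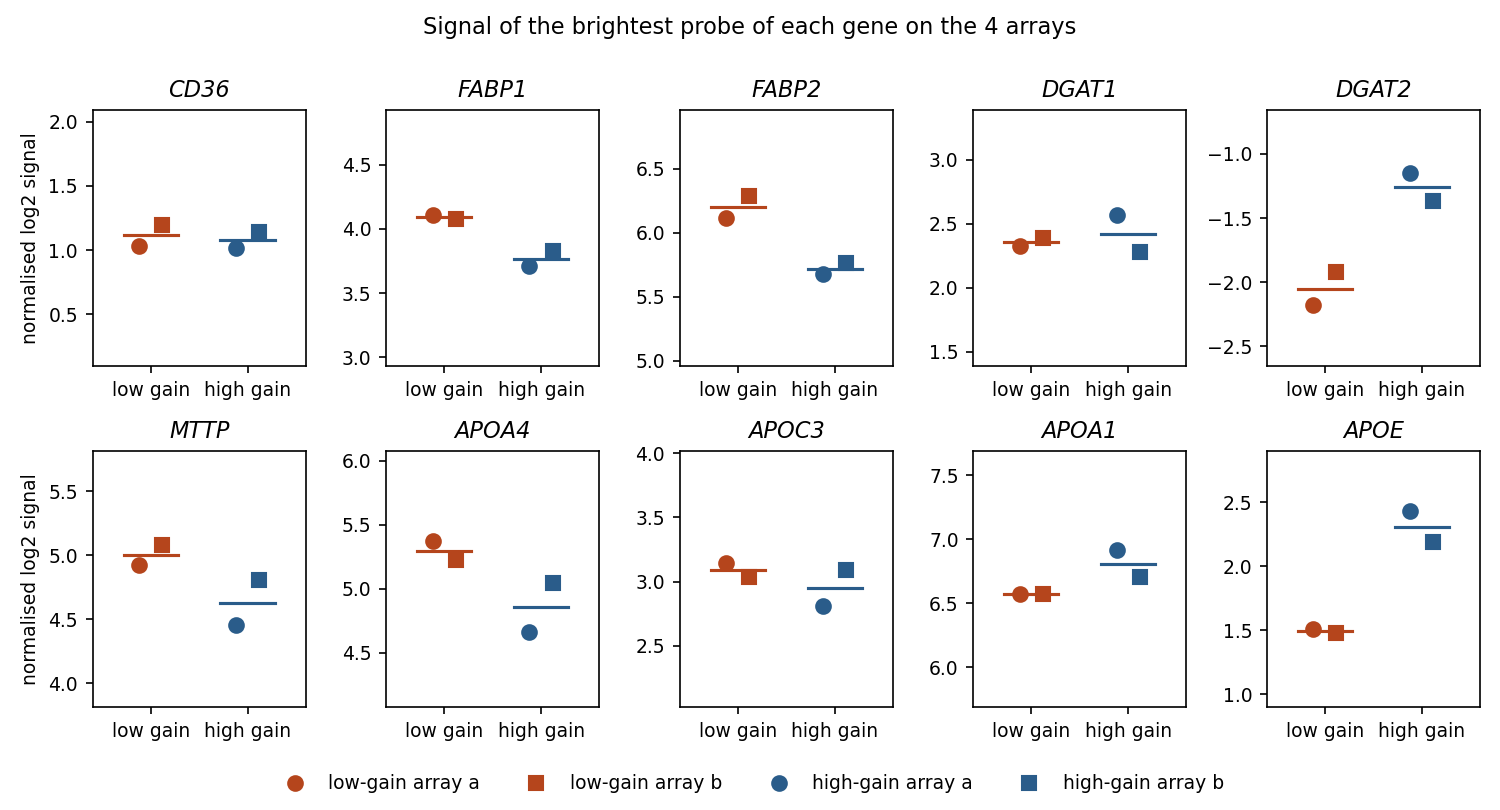
Normalised log2 signal (vertical axis, each panel spanning 2 log2 units) of the brightest probe of each gene, with low-gain arrays on the left and high-gain arrays on the right of each panel. Circles are arrays a, squares are arrays b and lines are group means; both low-gain arrays lie above both high-gain arrays for *FABP1*, *FABP2*, *MTTP* and *APOA4* and below them for *DGAT2*, *APOA1* and *APOE*.

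*CD36* encodes a membrane receptor that binds long-chain fatty acids. Its brightest probe read 1.03 and 1.19 on low-gain arrays a and b, against 1.02 and 1.14 on high-gain arrays a and b. The groups overlapped, and the difference of 0.04 ± 0.12 (SE, limma adjusted p = 0.883) had a 95% interval from -0.30 to 0.37. The other 3 *CD36* probes gave differences of 0.10, 0.26 and 0.20, all with intervals that included 0. In the probe at 0.10, arrays of a group were nearly equal, at -0.23 and -0.22 in low gain against -0.33 and -0.32 in high gain. Its groups did not overlap, and neither did those of the probe at 0.20. The sign of the brightest probe turned without low-gain array b (-0.04) and without high-gain array a (-0.02).

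*FABP1* and *FABP2* encode the liver-type and the intestinal-type fatty acid binding proteins, small cytosolic carriers that are abundant in enterocytes. The brightest *FABP2* probe read 6.12 and 6.28 on low-gain arrays a and b, against 5.68 and 5.77 on high-gain arrays a and b. Both low-gain arrays were above both high-gain arrays. The difference was 0.48 ± 0.12 (adjusted p = 0.198, 95% interval 0.15 to 0.81), a 1.39-fold higher signal in low gain. The other *FABP2* probe read 4.80 and 4.91 in low gain, against 4.29 and 4.41 in high gain, and gave 0.51 ± 0.11 (adjusted p = 0.19). With the intensity trend the adjusted p was 0.0372 for the brightest probe and 0.03 for the other.

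On all 3 *FABP1* probes both low-gain arrays lay above both high-gain arrays. The brightest read 4.11 and 4.08 in low gain, against 3.71 and 3.83 in high gain. It differed by 0.32 ± 0.11 (limma adjusted p = 0.249, 95% interval 0.03 to 0.62), or 1.25-fold. The second probe read 3.85 and 3.97 in low gain, against 3.45 and 3.55 in high gain, and gave 0.41 ± 0.11. It was the *FABP1* probe that passed with the intensity trend (adjusted p = 0.0494, against 0.0725 for the brightest and 0.123 for the third). The third gave 0.27 ± 0.11. Across the alternatives tried, the brightest probe of *FABP1* stayed between 0.26 and 0.39 and that of *FABP2* between 0.40 and 0.56.

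Markers of enterocytes had higher means in low gain, as these carriers did. Of 16 listed markers, 8 could be measured. By the brightest probe of each gene, all 8 had a higher mean in low gain and their median difference was 0.45, while the median over all 2158 genes tested by 1 probe each was 0.02. Of all 2158 genes, 1153 had a higher mean in low gain. The normalised signals of the 8, summed on a linear scale, came to 417 and 426 on the low-gain arrays, against 301 and 315 on the high-gain arrays. None of the 8 passed the test. With the intensity trend 5 rose, namely the peptidase genes *ANPEP* (0.68), *ENPEP* (0.48) and *DPP4* (0.46), the adhesion gene *CDH1* (0.58) and the keratin gene *KRT8* (0.44). In that fit 112 of all 2158 genes rose. The rise was not particular to enterocyte markers, since 6 smooth muscle markers had a median of 0.46 and 4 of them rose with the trend. *EPCAM*, an epithelial adhesion gene, differed by 0.16. Dimmer probes of 3 of the 8 genes were lower in low gain, down to -0.30 for *KRT8*, -0.63 for the glucose transporter gene *SLC5A1* and -0.08 for the peptide transporter gene *SLC15A1*. In whole tissue, fewer cells of a type and less RNA per cell cannot be told apart. The part of enterocyte content in the differences of *FABP1*, *FABP2* and the genes described next was not tested.

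*DGAT1* and *DGAT2* encode unrelated enzymes that both catalyse the last step of triglyceride synthesis. *DGAT1* read 2.33 and 2.39 on low-gain arrays a and b, against 2.56 and 2.28 on high-gain arrays a and b. Its groups overlapped, and the difference was -0.06 ± 0.14 (limma adjusted p = 0.824, 95% interval -0.45 to 0.33). The sign depended on high-gain array a, without which *DGAT1* was at 0.08, and without high-gain array b it was at -0.21.

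*DGAT2* read -2.18 and -1.92 on its brightest probe in low gain, against -1.15 and -1.37 in high gain. Both low-gain arrays were below both high-gain arrays, by at least 0.56. The difference was -0.79 ± 0.15 (limma adjusted p = 0.174, 95% interval -1.21 to -0.37), a 1.73-fold lower signal in low gain, and 2.79% of all tested probes had a difference as low. The other *DGAT2* probe gave -0.84 ± 0.32, with -3.99 and -3.22 in low gain against -2.59 and -2.94 in high gain. The intensity trend gave adjusted p-values of 0.049 for the brightest probe and 0.17 for the other. The size of the *DGAT2* difference depended on the background correction, since normexp on the median signal gave -0.31.

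*DGAT2* is also a gene of fat cells, and markers of fat cells did not share 1 direction. All 8 listed markers were measured, with 4 higher and 4 lower in low gain and a median difference of 0.01. Their summed linear signals were 15.1 and 15.0 on the low-gain arrays, against 17.0 on each high-gain array. *FABP4*, the fatty acid binding protein gene of fat cells, differed by -1.55 ± 0.12 (limma adjusted p = 0.0561) and the adipokine gene *ADIPOQ* by -0.96 ± 0.39 (adjusted p = 0.303). *RETN*, the resistin gene, differed by 1.04 ± 0.10 (adjusted p = 0.0833). The other *FABP4* probes ran from -1.60 to -1.35, and the second *RETN* probe gave 1.78. With the intensity trend 1 of the 8 markers rose, *RETN* (limma adjusted p = 0.00333), and 1 fell, *FABP4* (adjusted p = 0.00112). In that fit 112 of all 2158 genes rose and 58 fell. *PLIN1*, which encodes the droplet coat protein of fat cells, had the lowest difference of the list, -1.63 ± 0.55 (adjusted p = 0.257), but was well above background on only 1 of 2 low-gain arrays, and it is named here after its value was seen. The part of fat cell content in the *DGAT2* difference was not tested.

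*MTTP* encodes the large subunit of the microsomal triglyceride transfer protein, which loads lipid onto apolipoprotein B. Its probe read 4.92 and 5.08 on low-gain arrays a and b, against 4.45 and 4.80 on high-gain arrays a and b. The low-gain arrays were both above the high-gain arrays, but the nearest arrays of the groups were closer to each other than the high-gain arrays were. The difference was 0.37 ± 0.17 (limma adjusted p = 0.33, 95% interval -0.09 to 0.83). Without high-gain array a it was 0.20.

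*APOA4*, *APOC3* and *APOA1* lie next to each other in the pig gene table, in that order, and encode exchangeable apolipoproteins. Apolipoprotein A-IV is secreted by enterocytes on chylomicrons. The brightest *APOA4* probe read 5.38 and 5.22 in low gain, against 4.66 and 5.05 in high gain. Both low-gain arrays were above both high-gain arrays, and the difference was 0.44 ± 0.17 (limma adjusted p = 0.295, 95% interval -0.04 to 0.93). The second *APOA4* probe, with 2.69 and 2.39 in low gain against 2.22 and 2.34 in high gain, gave 0.26 ± 0.15. Without high-gain array a the brightest probe was at 0.25.

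*APOC3* encodes an inhibitor of lipoprotein lipase and of particle clearance. It read 3.14 and 3.04 in low gain, against 2.81 and 3.09 in high gain. The groups overlapped, and the difference was 0.14 ± 0.14 (adjusted p = 0.619, 95% interval -0.25 to 0.54), with 0.03 ± 0.11 on the second probe. This difference was 0.0004 without high-gain array a, 0.28 without high-gain array b and 0.09 without low-gain array a.

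*APOA1* encodes the main protein of high density lipoprotein, made in liver and intestine. It read 6.57 on each low-gain array, against 6.91 and 6.71 on high-gain arrays a and b. The low-gain arrays were both below the high-gain arrays, and the difference was -0.24 ± 0.12 (limma adjusted p = 0.373, 95% interval -0.57 to 0.10). The second *APOA1* probe read 6.35 and 6.29 in low gain, against 6.66 and 6.47 in high gain, and gave -0.25 ± 0.12. Without high-gain array a the brightest probe was at -0.13.

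*APOA4* and *APOA1* thus differed in opposite directions, although neither passed the test. Within each array the *APOA4* signal minus the *APOA1* signal, which a constant added to all log2 values of an array cannot move, was -1.19 and -1.35 in low gain, against -2.25 and -1.66 in high gain. The size of such a gap says nothing of relative abundance, and only its shift between groups was read. It shifted by 0.68, and both low-gain arrays were above both high-gain arrays. An exact two-sided permutation test over the 4 arrays gave p = 0.333, the smallest value that 2 arrays against 2 allow. For this pair the outcome was fixed in advance, because each gene alone already separated the groups, in opposite directions. The test therefore adds no support. For *APOC3* minus *APOA1* the shift was 0.38, with -3.43 and -3.53 in low gain against -4.10 and -3.62 in high gain, and the same exact p. These 2 pairs were compared because the genes are neighbours, after their values were seen, and p was not adjusted over the pairs.

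*APOE* encodes apolipoprotein E, a ligand of lipoprotein receptors that is made by the liver, macrophages and other cells. Its single probe read 1.51 and 1.48 on low-gain arrays a and b, against 2.43 and 2.19 on high-gain arrays a and b. The lowest high-gain array was 0.68 above the highest low-gain array, the widest separation among the brightest probes of the 10 genes. The difference was -0.81 ± 0.13 (limma adjusted p = 0.154, 95% interval -1.17 to -0.46), a 1.76-fold lower signal in low gain. It had the smallest adjusted p of the 20 probes, 0.0165 with the intensity trend, and 2.63% of all tested probes had a difference as low. Over all alternatives the difference stayed between -0.94 and -0.66.

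Macrophage markers had a median below 0. Of 11 listed, 5 were measured, and 4 of these had a lower mean in low gain, with a median difference of -0.25 over the 5. Their summed linear signals, to which bright probes contribute most, were 34.1 and 33.8 on the low-gain arrays against 34.9 on each high-gain array. *CD163*, which encodes the haemoglobin scavenger receptor, was at -0.41 ± 0.10 (limma adjusted p = 0.198), and *CD14*, a receptor gene for endotoxin, at -0.25 ± 0.14, with -1.11 on its second probe. *SIGLEC1*, a sialic acid receptor gene of macrophages, had the lowest difference of the list, -1.57 ± 0.41 (adjusted p = 0.207), but was well above background on only 1 of 2 low-gain arrays, and it too is named after its value was seen. *C1QA*, a complement gene of macrophages, differed by 0.11 ± 0.10. *CD163* alone among the 5 fell with the intensity trend (adjusted p = 0.0471), where 58 of all 2158 genes fell. The part of macrophage content in the *APOE* difference was not tested.

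**Figure D2:**
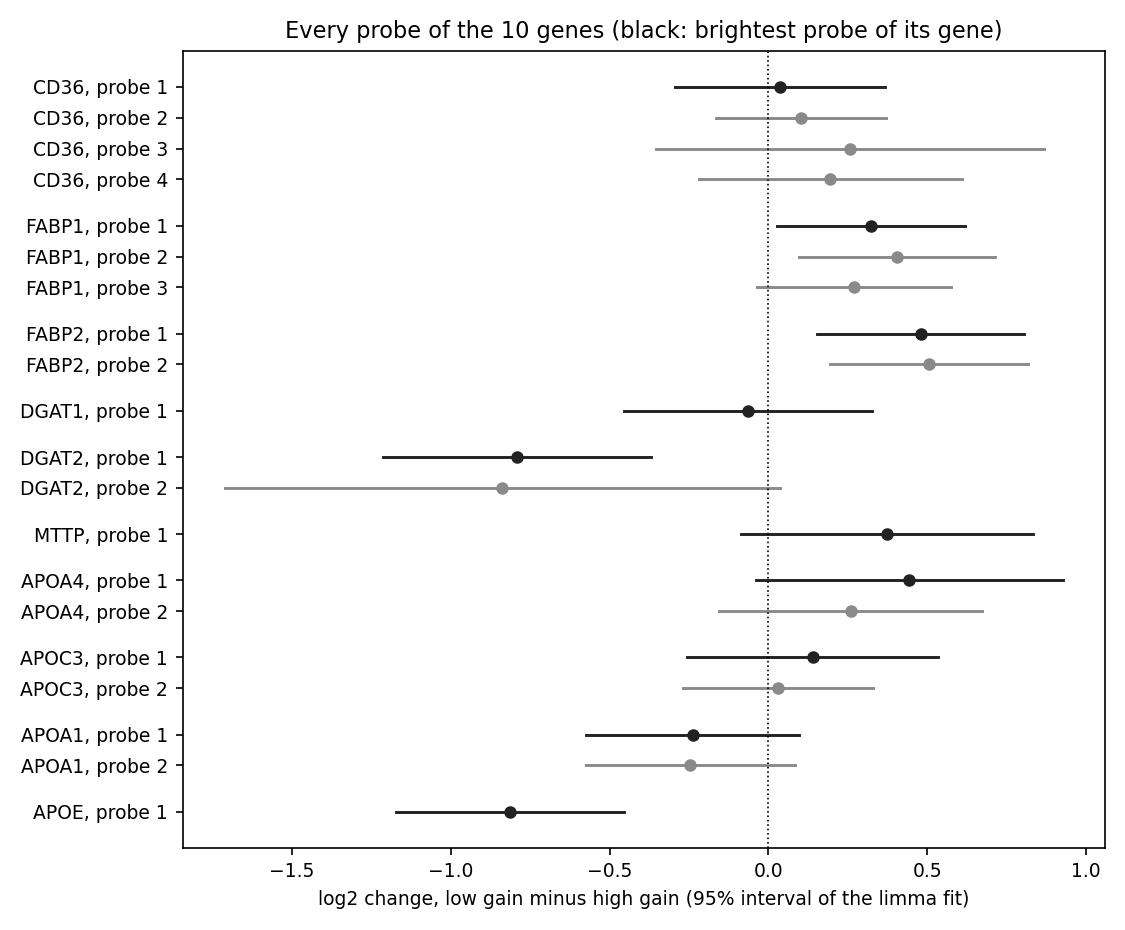
Log2 change, low gain minus high gain, for each of the 20 probes (points) with the 95% interval of the limma fit (lines), probes of a gene in order of brightness. The intervals of both *FABP2* probes, 2 *FABP1* probes, the *APOE* probe and the brightest *DGAT2* probe do not include 0, and the 7 genes with more than 1 probe keep 1 direction over all their probes.

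In the main fit, probes of the same gene pointed the same way. Each of the 7 genes with more than 1 probe had all its differences on 1 side of 0. Of the 20 probes, 3 changed sign without high-gain array a, and at most 1 did in any alternative that kept this array. The largest gap between 2 probes of a gene was that of *CD36*, with 0.04 and 0.26. In 10 of the 20 probes both low-gain arrays lay above both high-gain arrays, in 5 both lay below and in 5 the groups overlapped. Of all tested probes, 27.6% had both low-gain arrays above and 26.9% had both below. Groups that did not overlap made up 75% of these probes, against 54.5% of all tested probes. By 1 probe per gene, 7 of the 10 genes had groups that did not overlap, against 61.8% of all 2158 genes. The median difference of the 10 genes was 0.09, with 6 above 0 and 4 below, and that of all tested genes was 0.02.

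**Figure D3:**
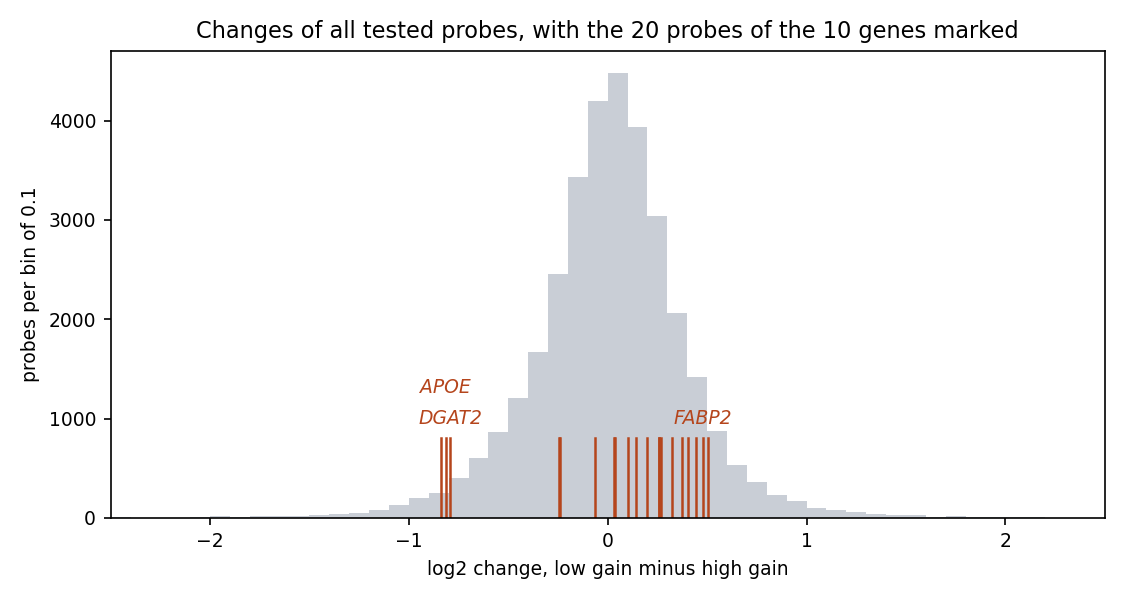
Number of tested probes (vertical axis) by log2 change, low gain minus high gain (horizontal axis, bins of 0.1, drawn from -2.5 to 2.5), with the 20 probes as red lines. The probes of *APOE* and *DGAT2* lie in the lower tail, where 2.41% to 2.79% of all tested probes are as low, while those of *FABP2* lie where 7.56% and 8.50% are as high.

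Other genes of fat uptake, triglyceride synthesis, lipid droplets and chylomicron assembly did not share a direction. Of 46 listed, 29 were measured, with 14 higher and 15 lower in low gain and a median difference of -0.03. None passed the test. *RBP2*, the retinol carrier gene of enterocytes, differed by 0.45 ± 0.11 (limma adjusted p = 0.201). It alone among the 29 passed with the intensity trend (adjusted p = 0.0405), where 112 of all 2158 genes rose and 58 fell. *PLIN2*, which encodes a lipid droplet coat protein, differed by -0.45 ± 0.12 (adjusted p = 0.207), and *GPAT4*, an acyltransferase gene of glycerolipid synthesis, by -0.53 ± 0.16 (adjusted p = 0.236) and by -1.05 on its second probe. *SAR1B*, whose product forms the vesicles that carry chylomicron precursors, differed by 0.11 ± 0.12. The largest differences in the list were those of the acyl-CoA synthetase gene *ACSL1* (0.69 ± 0.45, its other 2 probes at -0.64 and 0.01), the phospholipid transfer gene *PLTP* (-0.62 ± 0.38) and the apolipoprotein gene *APOA2* (-0.57 ± 0.75), all with wide errors. Probes of *APOB* and *MOGAT2* were not analysed here.

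Genes of sterol and bile acid handling differed little on their brightest probes. *FABP6*, the ileal bile acid binding protein gene that marks this part of the gut, read 8.65 and 8.72 in low gain, against 8.55 and 8.76 in high gain, and differed by 0.02 ± 0.12 (limma adjusted p = 0.931). *SCARB1*, a lipoprotein receptor gene, differed by 0.11 ± 0.10 on its brightest probe, while the remaining 3 probes gave -0.26 to -0.06. *NR1H3*, which encodes a sterol-sensing nuclear receptor, differed by -0.14 ± 0.10, and its other 2 probes by -0.59 and -0.19. These 3 of 19 listed genes were measured, and none passed in either fit.

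Lipoprotein receptors, lipases and related plasma lipid genes were lower in low gain for 7 of the 9 that were measured of 21 listed, with a median difference of -0.18. None passed the test. With the intensity trend 2 of them fell, where 58 of all 2158 genes did. *CLU*, the gene for clusterin or apolipoprotein J, was at -0.92 ± 0.16 (limma adjusted p = 0.161, and 0.017 with the trend). *LIPA*, the lysosomal acid lipase gene, was at -0.88 ± 0.17 (adjusted p = 0.176, and 0.0337 with the trend). *LIPC*, the hepatic lipase gene, differed by -0.88 ± 0.43. *LPL*, the lipoprotein lipase gene, differed by 0.20 ± 0.11, but its other probes ran from -0.52 to 0.25.

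**Figure D4:**
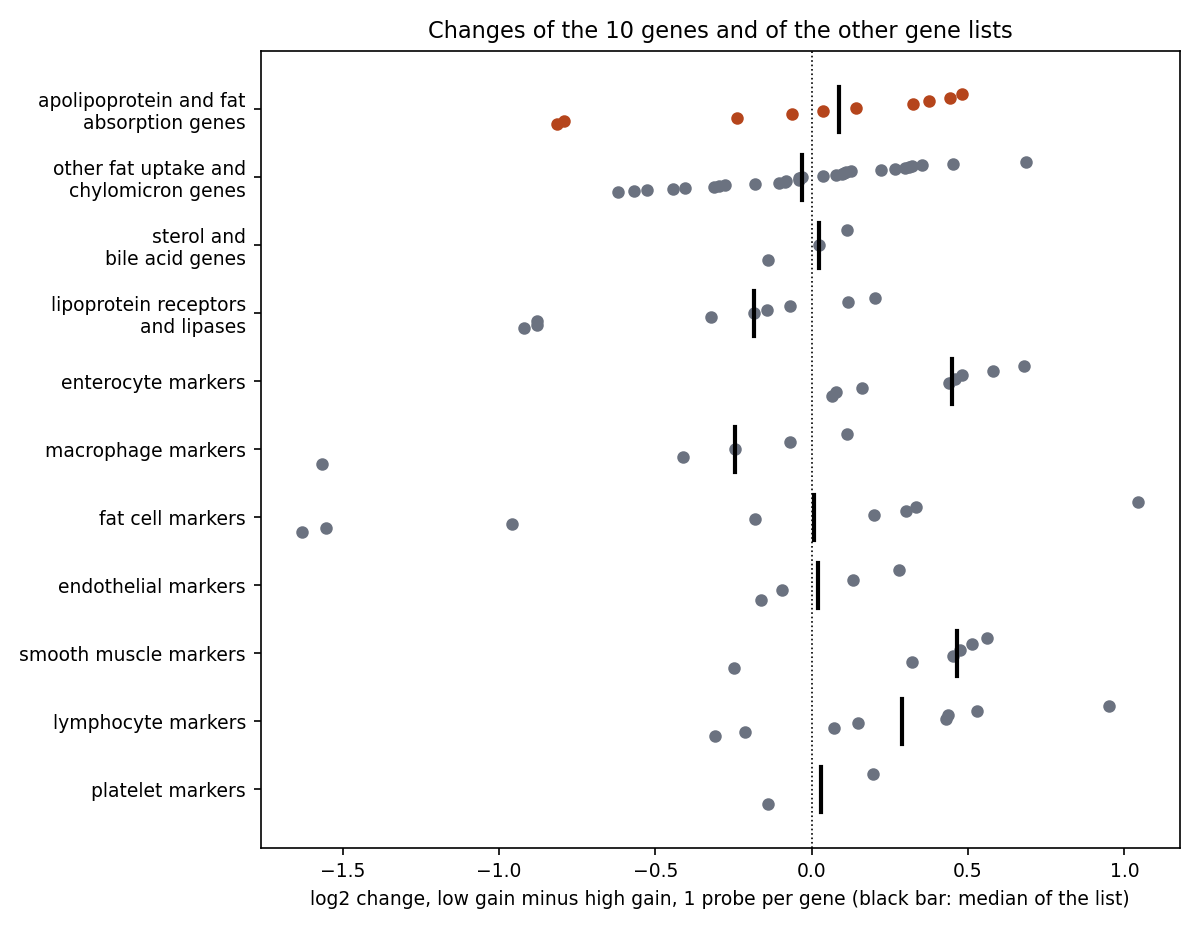
Log2 change, low gain minus high gain, by 1 probe per gene (points) for the 10 genes (red, top) and for the other gene lists (grey), with the list's median as a black bar. The 10 genes spread from -0.81 to 0.48 around a median of 0.09, while the 8 enterocyte markers all lie above 0 with a median of 0.45. The 6 smooth muscle markers have a median of 0.46.

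Markers of the remaining cell types gave medians of 0.46 over 6 smooth muscle genes, 0.29 over 8 lymphocyte genes, 0.02 over 4 endothelial genes and 0.03 over 2 platelet genes. With the intensity trend 4 of the 6 smooth muscle genes and 1 of the 8 lymphocyte genes rose, as did 112 of all 2158 genes. No red cell gene of the lists was measured here. Dimmer probes did not always share the direction of the brightest. *DES* was at 0.51 on its brightest probe but between -0.34 and -0.02 on the others. *ACTA2* was at -0.25, with others from -0.61 to 0.23, while the other probes of *CNN1*, *TPM1* and *TPM2* stayed positive. *CD8A*, a lymphocyte gene, was at 0.95 on its brightest probe and 0.03 on the other. The brightest *DES* probe contributed most to the summed linear signals of the smooth muscle markers. These sums were 324 and 318 on the low-gain arrays, against 248 and 245 on the high-gain arrays. Those of the endothelial markers were 8.23 and 8.37 in low gain, against 8.08 and 7.98 in high gain.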

How the data were processed

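The authors deposited scanner files from Agilent Feature Extraction 10.7.3.1, which hold spot intensities on a linear scale, per the file headers. They also deposited a table of log2 values, with processing not given in the sources used here. On the same array it tracked log2 processed signal (r = 0.982 to 0.993, column medians 5.59 to 5.67), its centring is unknown, and it served only as an alternative.

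From log2 processed signal, each array's 75th percentile of non-control spots was subtracted. Flagged outlier spots were left out, repeat spots were averaged, and 48 probes lacking a value were removed. A probe entered the test if well above background on both arrays of at least 1 group. Groups were compared with limma 3.58.1 (lmFit, eBayes) under R 4.3.3, p-values were adjusted by Benjamini-Hochberg over 33265 probes, and the fit was tested on simulated data. RefSeq accessions named 5461 probes through NCBI's Sscrofa11.1 table. The files name no build, so no coordinates are given. The brightest tested probe stood for a gene. All 10 genes are described. Of the other lists some genes are named, mostly those with large differences among probes well above background on all arrays, and also *SAR1B* and *FABP6*. This was not strict, since all 8 measured enterocyte markers are named, and *LPL* is named although *VLDLR* (-0.32) differed more. Genes and lists were chosen with earlier results of these data known. Over all tested probes the a minus b differences were not correlated between groups (-0.04), so the main fit used no pairing by letter. A pairing that touched only some probes would not show in this value. Alternatives covered background correction, scaling, filters, the prior variance, the letter as a block, the deposited log2 values and leaving out each array.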

Additional observations from a re-analysis of the deposited data

How the results depend on the processing

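Over the 10 genes and all alternatives with a test, 156 values kept their direction and side of the threshold, 6 passed only in the alternative and 8 changed sign, all 8 in *CD36* or *DGAT1*, whose groups overlap. The filters, the intensity trend and the letter as a block left every difference of these genes unchanged, so direction could not turn there. The fits without 1 array give the same differences with and without the trend, so their sign changes are counted in both. *CD36* was at -0.048 with the authors' deposited log2 values, at -0.0258 under normexp with bright local backgrounds replaced, and between -0.0437 and 0.117 when 1 array was left out, and *DGAT1* was then between -0.206 and 0.0793. The mean over a gene's probes, which has no test, kept the direction of all 10 genes. Of the 20 probes, 5 passed with the intensity trend, 2 (*APOE* and *DGAT2*) under normexp with bright backgrounds replaced, and between 0 and 1 when 1 array was left out, with or without the trend. The median difference of the 10 genes ran from 0.0223 with the authors' deposited log2 values to 0.189 without high-gain array b. It was 0.0399 without high-gain array a. Over all tested probes, 80 passed as reported, against 0 under normexp on the median signal (0 also at an unadjusted p under 0.05), 1043 with bright backgrounds replaced, 163 with median centring, 12 with no filter on dim probes, 0 with signal required on all 4 arrays (6071 at an unadjusted p under 0.05) and 1250 with the intensity trend. With the letter as a replicate block 0 passed (4703 at an unadjusted p under 0.05), and the smallest adjusted p among the 20 probes was 0.346. Leaving out 1 array gave 0 to 56 passing probes, and 130 to 565 with the trend. The replaced backgrounds and the trend with an array left out were chosen after seeing the data. Fits without 1 array assume that the lone array of a group varies like the others, and the cause of the other shifts was not tested. All 20 probes lay well above background on all 4 arrays, and the number of arrays limits these values. Normexp used the median signal.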

Other observations

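*APOA2*, a minor apolipoprotein gene of high density lipoprotein, separated the arrays by their letter and not by weight gain. It read 1.43 and 0.15 on low-gain arrays a and b, against 2.21 and 0.51 on high-gain arrays a and b. *LEP*, the leptin gene, did the same, with 0.05 and -2.29 in low gain against -0.81 and -2.10 in high gain. Both were singled out after their values were seen. Of all tested probes, 220 had arrays a and b more than 1 log2 unit apart in both groups. Array a was the higher one in both groups for 55 of these, array b for 45, and the groups disagreed for 120. None of the 20 probes of the 10 genes was among them.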
